A study of Mus musculus with 8 samples.

Results

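Transcripts of 10 genes of fibroblast growth factor (FGF) signalling were followed in MC3T3-E1 cells, an established mouse line of calvarial pre-osteoblasts, out of 55335 genes in the deposited table. They are the receptor genes Fgfr1 and Fgfr2, the ligand genes Fgf2 and Fgf7, the ETS-family transcription factor genes Etv4 and Etv5, and 4 genes whose products restrain the kinase ERK (Spry1, Spry2, Spry4 and Dusp6). The genes were chosen by name for these roles, with the scaffold comparison in the same libraries already known. Their differences are therefore given as a description, without p-values. The 8 libraries came from cells kept for 3 days with 1 of 2 scaffolds. TABS, named a Trio-Active bone scaffold in the series title, was used for 4 libraries. HA, a hydroxyapatite doped with magnesium, was used for the other 4. The sources used here do not describe the make-up of TABS. No library came from cells without a scaffold, so a level called higher on TABS could equally be a level lowered on HA. Genes that rose or fell, as worded below, were higher or lower in TABS than in HA. The labels call the 4 libraries of a group replicates without saying whether they were separate cultures. The p-values of other genes given further on may therefore reflect technical spread alone.

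FGFs are secreted proteins that bind receptor tyrosine kinases together with heparan sulfate chains on cell-surface and matrix proteoglycans. The activated receptor recruits the adaptor Frs2 and drives the Ras, Raf, MEK and ERK cascade, which induces the ETS factors Etv4 and Etv5 and also a set of its own inhibitors. Sprouty proteins (the Spry genes) act upstream in the cascade, and Dusp6 is a cytoplasmic phosphatase that removes the activating phosphates from ERK. Because these genes respond to ERK, their transcripts are widely used as readouts of FGF-ERK activity. In bone, Fgfr1 and Fgfr2 are the main receptors of the osteoblast lineage, and activating mutations of Fgfr2 cause premature fusion of skull sutures in humans.

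Values are FPKM, fragments per kilobase of transcript scaled to the fragments of a library, so levels can be compared between genes. In each library, 11187 to 11357 genes had at least 1 FPKM. The table gives no read totals, and low values were not whole multiples of a common step in most genes (11.0% to 26.8% within 0.02 of a step), so the depth is unknown. All 11 markers of the osteoblast lineage reached 1 FPKM in at least 1 library, with sums of 5200 to 5770 FPKM in TABS and 5170 to 5430 FPKM in HA. The near-equal sums hide opposite differences, since by limma 6 of the 11 fell and 2 rose (median log2 fold change -0.39). Of all tested genes, 2.9% fell and 4.49% rose. Ibsp, a matrix sialoprotein gene, stood at 14.5 ± 1.32 FPKM in TABS and 50.3 ± 3.58 FPKM in HA, a ratio of 0.29. The ratio was 0.34 for the alkaline phosphatase gene Alpl, 0.54 for Postn, 0.69 for the transcription factor gene Sp7, and 0.76 for both Col1a1 and Sparc. Alpl was low, at 0.373 to 0.518 FPKM in TABS and 1.13 to 1.80 FPKM in HA. It reached 1 FPKM, and so was tested, only through the HA libraries. The osteocyte-associated gene Dmp1 (31.6 ± 1.93 FPKM in TABS and 17.6 ± 2.36 FPKM in HA, ratio 1.80) and Spp1, which encodes osteopontin (ratio 1.36), were the ones that rose. The part of this shift in the receptor and feedback differences was not tested. None of the 4 adipocyte, 5 endothelial and 5 muscle markers reached 1 FPKM. The leukocyte list had 1 of 8 markers at that level and summed to 7.11 to 9.37 FPKM in TABS and 6.36 to 7.03 FPKM in HA. The epithelial list had 1 of 5, with sums of 1.21 to 1.63 FPKM in TABS and 2.49 to 3.75 FPKM in HA, and the cartilage list 1 of 5, with sums of 5.69 to 6.42 FPKM in TABS and 4.11 to 5.26 FPKM in HA. The genes concerned had groups that did not overlap, and their part in the results was not tested: Cd14 (6.89 to 8.98 FPKM in TABS, 6.01 to 6.73 in HA), Krt14 (1.13 to 1.44 in TABS, 2.36 to 3.61 in HA) and the collagen gene Col2a1 (5.33 to 5.79 in TABS, 3.82 to 4.96 in HA). The defining leukocyte genes Ptprc, Itgam and Cd3e and the epithelial gene Epcam lay at or near 0. In bulk RNA, fewer cells of a type and less RNA per cell cannot be told apart.

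TABS and HA were compared by limma on log2(FPKM + 1), and a gene was called at a Benjamini-Hochberg adjusted p under 0.05. In all, 833 of 11280 tested genes were called, or 7.38%, with 506 higher (4.49%) and 327 lower (2.9%) in TABS. FPKM summed over all genes came to 304893 to 307263 in TABS and 312629 to 317439 in HA. After rescaling to TPM, which makes these totals equal, the split was 915 higher and 239 lower. It was 484 higher and 364 lower with median-of-ratios scaling, and 487 higher and 452 lower after a correction for GC content and length. Leaving out TABS 1 gave 446 calls, TABS 2 gave 480, TABS 3 gave 415, TABS 4 gave 488, HA 2 gave 518 and HA 3 gave 506. Of the 10 genes, 8 were called, 6 higher and 2 lower in TABS. In 9 of 10 all libraries of one group lay beyond all of the other (7 higher, 2 lower), as in 18% of all tested genes (10.8% higher and 7.15% lower). Since the genes were picked with this comparison known, nothing is read from these shares. The number called was 5 without TABS 1, HA 1 or HA 4, 4 without TABS 2 or HA 2, and 3 without TABS 3 or TABS 4. Without HA 3 it was 7. All 10 passed the filter of 1 FPKM in 4 libraries, Spry4 only through its 4 TABS libraries.

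**Figure D1:**
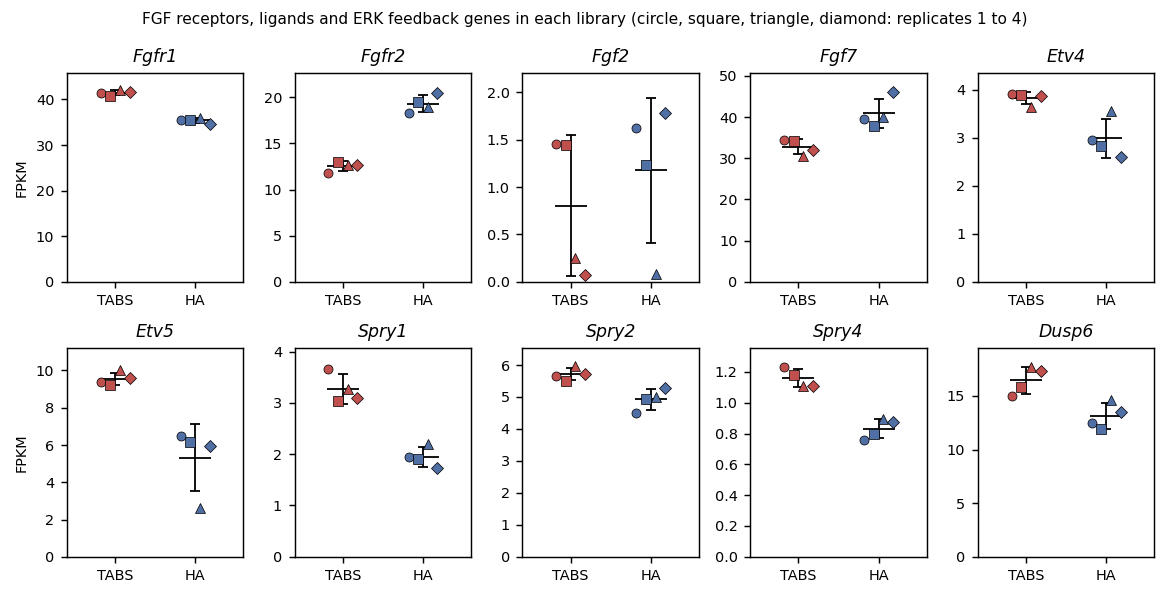
FPKM of each of the 10 genes (vertical axes, starting at 0) in TABS and HA libraries. Each symbol is 1 library, the horizontal bars are means and the error bars SDs (n = 4 per group). Every gene except Fgf2 shows groups that do not overlap, with Fgfr2 and Fgf7 lower and the others higher in TABS.

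The 2 main receptor transcripts lay on opposite sides of HA: Fgfr1 was higher and Fgfr2 lower in TABS. Fgfr1 encodes the receptor that prevails in most mesenchymal cells. It stood at 41.5, 40.8, 42.0 and 41.6 FPKM in TABS 1 to 4, and at 35.5, 35.6, 36.0 and 34.6 FPKM in HA 1 to 4. Within each group the libraries lay close together, and the 2 groups were well apart. Its mean was 41.5 ± 0.509 FPKM in TABS and 35.4 ± 0.564 FPKM in HA (SD, n = 4), a ratio of 1.17 and a log2 fold change of 0.22 ± 0.03 (SE). After correction for GC content and length the fold change was 0.15. Fgfr1 was called in 16 of 18 alternatives, and not with the replicate block, with or without that correction.

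Fgfr2, the receptor gene tied to skull suture disease, read 11.8, 13.0, 12.7 and 12.7 FPKM in TABS against 18.3, 19.5, 19.0 and 20.5 FPKM in HA. Each TABS library thus lay well below the lowest HA library. The means were 12.6 ± 0.512 FPKM in TABS and 19.3 ± 0.954 FPKM in HA, a ratio of 0.65 and a log2 fold change of -0.58 ± 0.05. It was called under all 18 alternatives. Fgfr2 makes splice forms with different ligand preference, which a value per gene cannot separate. In GRCm38, Fgfr1 (ENSMUSG00000031565) lies on chromosome 8 from 25513654 to 25575718. Fgfr2 (ENSMUSG00000030849) is annotated on chromosome 7 from 130162451 to 133123350, a span that reaches Ctbp2, with which it shares 314 exonic bases on the same strand. Ctbp2 itself stood at 2.99 to 3.37 FPKM in TABS and 2.97 to 3.22 FPKM in HA, with overlapping groups.

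Fgfr3, which is not among the 10 genes and was named after its values were seen, is best known for limiting growth of cartilage and was a minor receptor transcript. It read 1.42, 1.29, 1.57 and 1.33 FPKM in TABS and 1.88, 3.34, 1.74 and 2.84 FPKM in HA. The groups did not overlap, but the difference missed the threshold (log2 fold change -0.49 ± 0.14, limma adjusted p = 0.0642) except on leaving out HA 3 (-0.60, adjusted p = 0.0405) or on correcting for GC content and length (-0.56, adjusted p = 0.0441). Fgfr4 was at or near 0, up to 0.023 FPKM in TABS and 0.0112 FPKM in HA. Summed over Fgfr1, Fgfr2 and Fgfr3, receptor transcripts came to 55.4 ± 0.661 FPKM in TABS and 57.2 ± 1.27 FPKM in HA. What differed more was the make-up of that sum. Fgfr1 took 74.8% ± 0.736 of receptor FPKM in TABS and 62.0% ± 1.98 in HA, and Fgfr2 took 22.6% ± 0.84 in TABS and 33.7% ± 1.12 in HA. The ratio of Fgfr1 to Fgfr2 was 3.51, 3.14, 3.32 and 3.27 in TABS, against 1.94, 1.83, 1.90 and 1.69 in HA. This ratio does not depend on how a library is scaled.

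**Figure D2:**
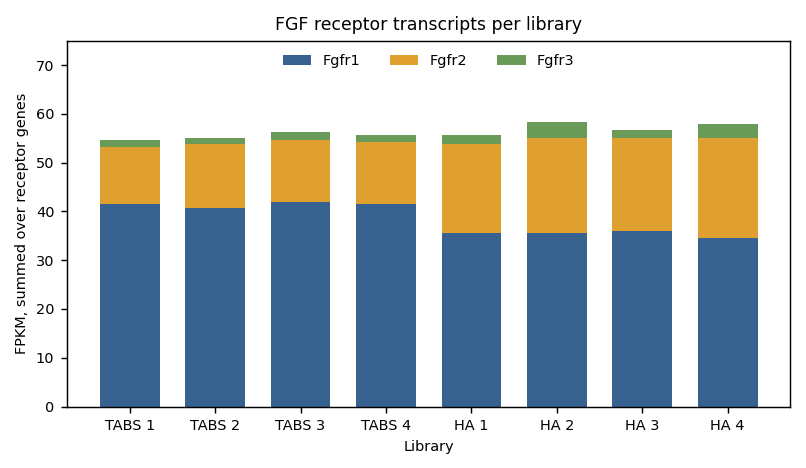
FPKM of Fgfr1, Fgfr2 and Fgfr3 stacked in each library (vertical axis from 0). The stacks reach 54.8 to 56.3 FPKM in TABS and 55.6 to 58.4 FPKM in HA, while the Fgfr2 segment is shorter and the Fgfr1 segment longer in every TABS library.

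Fgf7 was the prevailing FGF ligand transcript, and it was lower in TABS. Fgf7, keratinocyte growth factor, is made by mesenchymal cells and acts mainly on the epithelial splice form of Fgfr2. It stood at 34.4, 34.1, 30.6 and 32.1 FPKM in TABS and at 39.6, 37.9, 40.0 and 46.1 FPKM in HA. The highest TABS library lay below the lowest HA library, and HA 4 was the highest of the 8. Means were 32.8 ± 1.79 FPKM in TABS and 40.9 ± 3.55 FPKM in HA (SD, n = 4), a ratio of 0.80 and a log2 fold change of -0.31 ± 0.07, or -0.17 after the correction for GC content and length. It was no longer called when TABS 3, TABS 4 or HA 3 was omitted. Of all secreted FGF transcripts, Fgf7 made up 95.5% to 99.1% in TABS and 95.7% to 99.5% in HA.

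Fgf2, basic FGF, is a mitogen of osteoblast precursors that is stored in bone matrix. It read 1.45, 1.44, 0.255 and 0.0715 FPKM in TABS and 1.62, 1.23, 0.0792 and 1.78 FPKM in HA. The values fell on 2 levels, above 1 FPKM in 5 libraries and far below it in TABS 3, TABS 4 and HA 3, so the groups overlapped and the spread exceeded the difference (log2 fold change -0.28 ± 0.36). Fgf2 shares 640 exonic bases with Nudt6 on the opposite strand, and the sources do not state whether counting used strand, so reads of the 2 genes cannot be told apart there. Nudt6 stood at 1.34, 1.38, 1.72 and 1.16 FPKM in TABS and 1.48, 1.37, 0.782 and 0.911 FPKM in HA. None of the 16 other secreted FGF genes reached 0.15 FPKM in any library, among them Fgf9, Fgf18 and Fgf23, which are known for roles in bone.

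Of the 6 feedback genes, 5 were called higher in TABS (4.49% of all tested genes were), and Spry2 was not called. All 6 had groups that did not overlap, with TABS higher (10.8% of all tested genes). Nothing is read from these shares either, and Spry4 passed the filter only through TABS. Etv5, an ETS factor of the PEA3 group, had the largest fold change of the 6, a rank that rested on HA 3. It stood at 9.40, 9.23, 10.01 and 9.59 FPKM in TABS and at 6.49, 6.16, 2.63 and 5.95 FPKM in HA. HA 3 lay far below the other HA libraries. The means were 9.56 ± 0.337 FPKM in TABS and 5.31 ± 1.80 FPKM in HA, a ratio of 1.80 and a log2 fold change of 0.80 ± 0.20. Without HA 3 the fold change was 0.55, just under that of Spry1 (0.57), and Etv5 was still called, while it was not called without any other single library or under most other alternatives (called in 3 of 18).

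Etv4, the closest relative of Etv5 here, was expressed at a lower level. It read 3.91, 3.89, 3.64 and 3.88 FPKM in TABS, against 2.95, 2.84, 3.56 and 2.61 FPKM in HA. HA 3, which was lowest for Etv5, was the highest HA library for Etv4 and came close to TABS 3. Its means were 3.83 ± 0.127 FPKM in TABS and 2.99 ± 0.404 FPKM in HA, a ratio of 1.28 and a log2 fold change of 0.28 ± 0.07. Etv4 was called in 6 of 17 alternatives, and of the libraries left out in turn only without HA 3 (0.35). Etv1, the third gene of the PEA3 group, stood at 2.37 ± 0.376 FPKM in TABS and 2.34 ± 0.163 FPKM in HA (0.01 ± 0.08, limma adjusted p = 0.959).

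Among the Sprouty genes, Spry1 showed the clearest difference. It read 3.67, 3.03, 3.28 and 3.09 FPKM in TABS and 1.95, 1.91, 2.20 and 1.73 FPKM in HA. The lowest TABS library was well above the highest HA library. Spry1 averaged 3.27 ± 0.286 FPKM in TABS and 1.95 ± 0.194 FPKM in HA (SD, n = 4), a ratio of 1.68 and a log2 fold change of 0.53 ± 0.07, and it was called in 17 of 17 alternatives. Spry2 was the most abundant of the 3, at 5.67, 5.51, 5.97 and 5.73 FPKM in TABS and 4.49, 4.95, 4.99 and 5.29 FPKM in HA. Its groups came close to each other, its log2 fold change was 0.18 ± 0.05 with a ratio of 1.16, and it was not called. Spry4 was the least abundant, at 1.23, 1.18, 1.11 and 1.11 FPKM in TABS and 0.760, 0.799, 0.894 and 0.874 FPKM in HA, a ratio of 1.39. Its log2 fold change of 0.24 ± 0.05 is compressed by the pseudocount (0.43 with a pseudocount of 0.1), and its call was lost without any one of TABS 1 to 4 or HA 2.

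Dusp6, the ERK phosphatase, was the most abundant feedback transcript. It stood at 15.0, 15.8, 17.7 and 17.3 FPKM in TABS and at 12.5, 11.9, 14.6 and 13.5 FPKM in HA. TABS 1 and HA 3 lay close to each other. The means were 16.4 ± 1.27 FPKM in TABS and 13.1 ± 1.19 FPKM in HA, a ratio of 1.25 and a log2 fold change of 0.31 ± 0.07. Its call was lost without TABS 2, 3 or 4 or HA 1, 2 or 4. Ordered by level in either group, the feedback transcripts ran Dusp6, Etv5, Spry2, Etv4, Spry1 and Spry4. Neighbours in this order overlapped in HA for Etv5 and Spry2, and in TABS for Etv4 and Spry1.

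The start regions of Dusp6, Spry2 and Spry1 are shown because these 3 inhibitor genes, of which Dusp6 and Spry1 were called higher in TABS and Spry2 was not called, differ in their matches to a motif of the ERK-regulated repressor Capicua (gene Cic), which is known to bind octamers near genes such as Dusp6, Etv4 and Etv5. Each sequence runs from 250 bases before to 50 bases after the start annotated by RefSeq in GRCm38.p6, read 5′ to 3′ on the gene's strand. Capitals mark matches, on either strand, to TGAATGAA, TGAATGGA, TCAATGAA or TCAATGGA.
Dusp6, chr10:99262981-99263280, plus strand: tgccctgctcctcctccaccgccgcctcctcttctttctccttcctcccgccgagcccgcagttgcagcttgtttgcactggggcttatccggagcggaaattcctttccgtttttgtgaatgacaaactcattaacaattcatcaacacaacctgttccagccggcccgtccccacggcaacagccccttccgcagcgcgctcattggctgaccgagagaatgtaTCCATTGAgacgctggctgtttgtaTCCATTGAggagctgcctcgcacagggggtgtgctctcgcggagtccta
Spry2, chr14:105896770-105897069, minus strand: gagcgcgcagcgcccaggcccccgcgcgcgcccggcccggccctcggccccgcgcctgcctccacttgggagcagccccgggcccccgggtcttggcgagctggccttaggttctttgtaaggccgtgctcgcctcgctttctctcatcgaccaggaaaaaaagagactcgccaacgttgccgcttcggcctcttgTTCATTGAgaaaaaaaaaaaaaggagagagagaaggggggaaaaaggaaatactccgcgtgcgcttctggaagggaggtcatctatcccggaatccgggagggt
Spry1, chr3:37639697-37639996, plus strand: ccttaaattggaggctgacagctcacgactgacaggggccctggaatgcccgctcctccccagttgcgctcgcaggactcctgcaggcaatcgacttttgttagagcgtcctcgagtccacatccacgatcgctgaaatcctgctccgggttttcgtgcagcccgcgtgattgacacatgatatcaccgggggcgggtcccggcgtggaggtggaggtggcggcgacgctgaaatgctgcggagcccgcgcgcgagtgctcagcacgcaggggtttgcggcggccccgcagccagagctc
Dusp6 holds 2 matches, both read as TCCATTGA, which is the opposite strand of TCAATGGA. Spry2 holds 1 match, read as TTCATTGA, and Spry1 holds none. RefSeq start regions were matched for 7 of the 10 genes (8 regions, since Etv5 has 2 starts), and Fgf2, Fgf7, Fgfr2 and Etv5 held no match either. Of 32851 start regions of the same length, 3.84% held at least 1 of the 4 octamers. The ETS letters CCGGAAG (8.86% of all start regions) and the AP-1 letters TGANTCA (7.81%), searched on both strands, were found in none of the 8. Since neither was found, no octamer match overlaps another motif. A match describes letters only, and says nothing of whether a factor is bound.

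The rest of the pathway was taken from lists without any of the 10 genes. These lists too were chosen with earlier results of these data known. Their counts, medians and p-values are therefore a description and no independent support for the feedback genes. Among ERK pathway inhibitors beyond the Sprouty genes and Dusp6, 4 of 13 tested genes rose and 0 fell by limma (7 higher and 0 lower at an unadjusted p under 0.05), where 4.49% of all tested genes rose and 2.9% fell (13.2% higher and 10.8% lower at an unadjusted p under 0.05). These 13 genes had a median log2 fold change of 0.13 against 0.01 over all tested genes. Cic, the repressor itself, stood at 15.2, 15.2, 15.0 and 14.4 FPKM in TABS, against 12.04, 12.2, 12.2 and 11.6 FPKM in HA. Its log2 fold change was 0.30 ± 0.04 (limma adjusted p = 0.00298). Dusp5, a nuclear ERK phosphatase, averaged 4.57 ± 0.299 FPKM in TABS and 3.53 ± 0.212 FPKM in HA (0.30 ± 0.06, adjusted p = 0.0149). Spred2, a Sprouty-related inhibitor of Ras signalling, averaged 7.47 ± 0.235 FPKM in TABS and 6.11 ± 0.389 FPKM in HA (0.25 ± 0.05, adjusted p = 0.0193). The fourth was Dusp1, a nuclear phosphatase of several MAP kinases, at 25.7 ± 1.65 FPKM in TABS and 20.9 ± 1.78 FPKM in HA (0.29 ± 0.07, adjusted p = 0.0362), named after its values were seen. The 4 calls became 2 without TABS 3 or TABS 4, where Spred2 (largest adjusted p 0.062) and Dusp1 missed the threshold. Dusp1 also missed it when TABS 1, HA 1, HA 2 or HA 4 was omitted (largest adjusted p over all omissions 0.0946).

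Dusp7, another cytoplasmic ERK phosphatase also named after its values were seen, stood at 8.53, 8.38, 9.27 and 9.30 FPKM in TABS and 5.22, 5.10, 5.47 and 8.54 FPKM in HA. HA 4 lay inside the TABS range, apart from the other 3 HA libraries. Dusp7 missed the threshold (0.50 ± 0.13, adjusted p = 0.0513), and passed without HA 4 (0.66, adjusted p = 0.00152). Below the filter and not tested, Dusp2 read 0.414 to 0.629 FPKM in TABS and 0.149 to 0.221 FPKM in HA, and Dusp4 read 0.969 to 1.22 FPKM in TABS and 0.655 to 0.910 FPKM in HA. Both had groups that did not overlap. Il17rd, the FGF antagonist Sef, read 0.352 to 0.454 FPKM in TABS and 0.250 to 0.363 FPKM in HA, with groups that overlapped. These 3 genes were named after their values were seen.

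**Figure D3:**
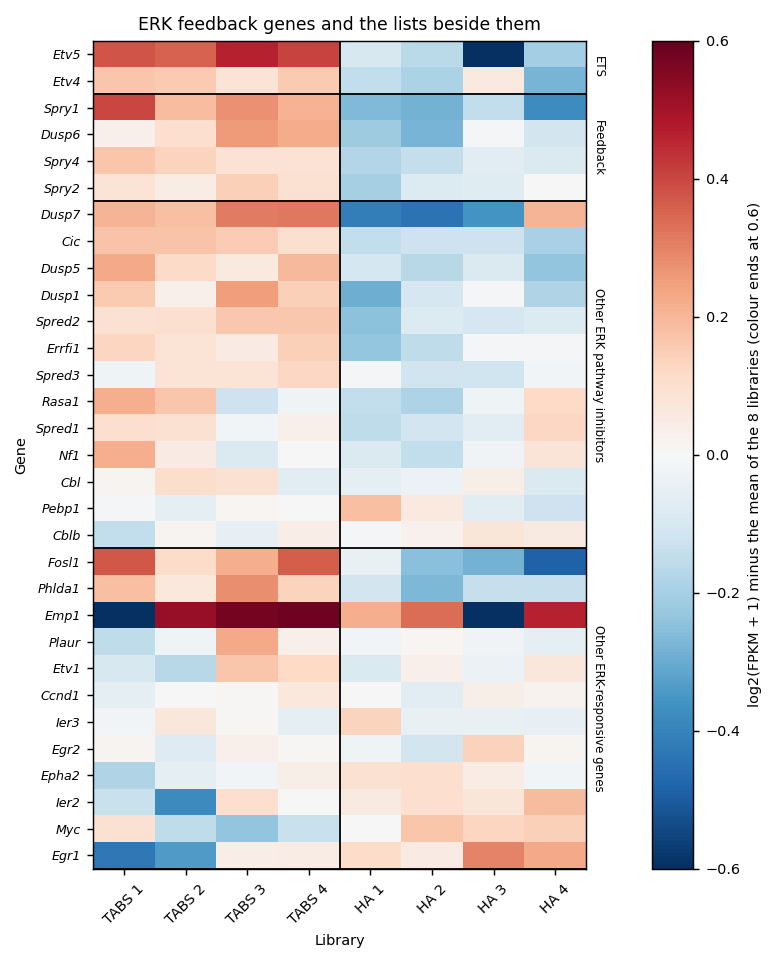
Level of each ERK feedback gene and of the tested genes of the lists beside it (rows) in each library (columns), as log2(FPKM + 1) minus the gene's mean over the 8 libraries. Red is above and blue below that mean. The 6 feedback genes and Cic, Dusp5 and Spred2 are on the red side in every TABS library, whereas Egr1 lies on the blue side in TABS 1 and TABS 2.

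Other genes that ERK is known to induce did not move as one. Of 12 tested, 2 rose and 0 fell by limma (2 higher and 2 lower at an unadjusted p under 0.05). Their median log2 fold change was 0.00. Over all tested genes, 4.49% rose and 2.9% fell (13.2% and 10.8% at an unadjusted p under 0.05), with a median of 0.01. Fosl1, an AP-1 subunit, stood at 10.9, 8.91, 9.69 and 10.8 FPKM in TABS and 7.89, 6.71, 6.54 and 5.56 FPKM in HA (0.53 ± 0.10, limma adjusted p = 0.0122). Phlda1 averaged 9.08 ± 0.632 FPKM in TABS and 7.03 ± 0.382 FPKM in HA (0.33 ± 0.06, adjusted p = 0.0115). Both were called in all 18 alternatives. Fosl1, whose longest transcript has 1864 bases, shares 1163 exonic bases with Ccdc85b and Phlda1 727 with Gm28592, both on the opposite strand. The sources do not state whether counting used strand, so reads of each pair cannot be told apart there. The 18 alternatives do not address this.

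The immediate early transcription factor gene Egr1 lay the other way. It read 2.72, 2.95, 4.14 and 4.16 FPKM in TABS and 4.40, 4.17, 5.15 and 4.86 FPKM in HA, so that the groups just failed to overlap (-0.34 ± 0.12, adjusted p = 0.112). Egr1 passed as lower in 1 alternative, the GC and length correction with the replicate block (-0.41, adjusted p = 0.0291). Myc, a growth-promoting transcription factor gene, stood at 8.80 ± 0.985 FPKM in TABS and 10.3 ± 0.577 FPKM in HA (-0.21 ± 0.07, adjusted p = 0.112), and passed only without TABS 1 (-0.28, adjusted p = 0.0362). The cyclin gene Ccnd1 stood at 97.8 ± 3.27 FPKM in TABS and 97.6 ± 2.96 FPKM in HA (adjusted p = 0.977). Etv1, Myc and Ccnd1 were named after their values were seen.

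Genes of the cascade between receptor and nucleus held 1 call in 24 tested by limma, which was higher. At an unadjusted p under 0.05, 5 were higher and 0 lower, and the median log2 fold change was 0.04. All tested genes gave 4.49% higher and 2.9% lower (13.2% and 10.8% at an unadjusted p under 0.05), with a median of 0.01. Plcg1, the phospholipase that binds activated FGF receptors, stood at 21.9 ± 0.945 FPKM in TABS and 19.2 ± 0.822 FPKM in HA (0.18 ± 0.05, limma adjusted p = 0.0496). That call was lost without any single library (adjusted p from 0.0575 to 0.125) and in 15 of 18 alternatives in all. The scaffold gene Ksr1 (0.20 ± 0.06, adjusted p = 0.0884) and the adaptor gene Gab2 (0.13 ± 0.04, adjusted p = 0.0985) did not pass. Mapk3, which encodes ERK1 and was named after its values were seen, did not pass either. It stood at 178 ± 4.75 FPKM in TABS and 175 ± 12.8 FPKM in HA (0.03 ± 0.06, adjusted p = 0.826).

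Among other receptors and heparan sulfate carriers, 13 of 21 genes were tested, of which 2 rose and 0 fell by limma. At an unadjusted p under 0.05, 3 were higher and 1 lower, and the median log2 fold change was 0.06. All tested genes gave 4.49% higher and 2.9% lower (13.2% and 10.8% at an unadjusted p under 0.05), with a median of 0.01. Gpc1, a glypican that presents FGFs to their receptors, stood at 87.5, 84.0, 87.8 and 82.9 FPKM in TABS and 76.9, 74.5, 69.5 and 68.2 FPKM in HA (0.24 ± 0.05, limma adjusted p = 0.02). Sdc3, a syndecan, averaged 3.86 ± 0.0194 FPKM in TABS and 3.09 ± 0.247 FPKM in HA (0.25 ± 0.05, adjusted p = 0.0202). Neither call held up against every omission: Gpc1 missed the threshold when TABS 1, TABS 3 or HA 3 was omitted (largest adjusted p 0.0645), and Sdc3 when any TABS library, HA 2 or HA 3 was (largest 0.0585). Gpc1 shares 977 exonic bases with Ankmy1 on the opposite strand. Sdc4 had groups that did not overlap (81.0 ± 2.32 FPKM in TABS and 73.5 ± 1.46 FPKM in HA) but missed the threshold (0.14 ± 0.04, adjusted p = 0.0591). The klotho co-receptor genes Kl and Klb, Fgfr4 and 5 others stayed below 0.15 FPKM.

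Receptor tyrosine kinases of other families were compared because they feed the same cascade. Of 14 tested, 4 rose and 0 fell by limma (5 higher and 0 lower at an unadjusted p under 0.05). The median log2 fold change was 0.12. Over all tested genes, 4.49% rose and 2.9% fell (13.2% and 10.8% at an unadjusted p under 0.05), with a median of 0.01. Axl, the Gas6 receptor gene, averaged 87.6 ± 3.15 FPKM in TABS and 74.3 ± 2.62 FPKM in HA (0.23 ± 0.04, limma adjusted p = 0.0138). The PDGF receptor genes Pdgfra (91.6 ± 3.96 FPKM in TABS and 77.5 ± 4.10 FPKM in HA, 0.24 ± 0.05, adjusted p = 0.0252) and Pdgfrb (72.3 ± 0.764 FPKM in TABS and 63.5 ± 2.14 FPKM in HA, 0.18 ± 0.04, adjusted p = 0.0214) rose as well. So did the ephrin receptor gene Ephb2 (0.18 ± 0.04, adjusted p = 0.0272), named after its values were seen. After correction for GC content and length, Ephb2 was at 0.10 and no longer called (adjusted p = 0.169), and Pdgfrb was at 0.11 (adjusted p = 0.0467). With 1 library left out the 4 calls became 1 without TABS 1, 2 or 3 or HA 3, and 2 without TABS 4 or HA 2.

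**Figure D4:**
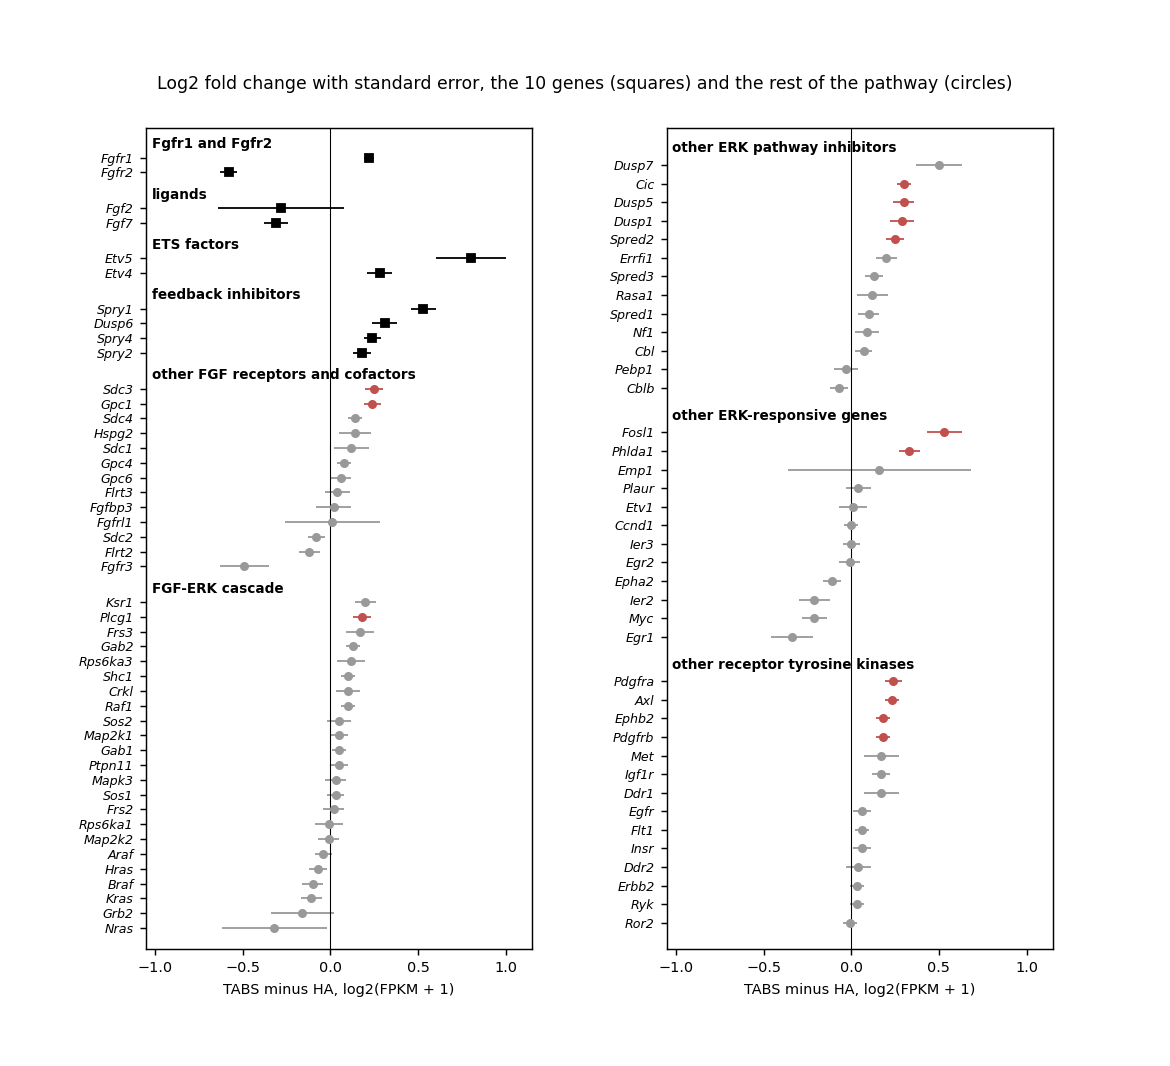
Log2 fold change (TABS minus HA, horizontal axis, error bars SE) of the 10 genes (squares) and of tested genes in the lists beside them (circles, red where higher at adjusted p under 0.05, grey otherwise). Fgfr2 is the lowest value at -0.58 and Etv5 the highest at 0.80, and no gene of the lists was called lower.

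Some transcripts of these lists took 2 levels that did not follow the scaffolds. Fgfrl1, a receptor without a kinase domain, read 31.8, 16.8, 17.2 and 16.7 FPKM in TABS and 17.2, 33.4, 15.6 and 16.5 FPKM in HA. Emp1, a membrane protein gene, read 30.1, 114, 118 and 119 FPKM in TABS and 91.9, 100.1, 30.8 and 109 FPKM in HA. Grb2, the adaptor that links receptors to Ras, read 23.8 FPKM in TABS 2 and 42.3 to 46.3 FPKM in the other 7 libraries. These 3 genes were named after their values were seen. The low or high level was seen in 2 libraries for Fgfrl1 and Emp1 and in 1 for Grb2.

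After subtracting each group's mean, the genes whose levels most resembled those of Etv5 over the 8 libraries were Pdzd4, Map2k7 and Xpnpep3 (Pearson r of 0.992, 0.984 and 0.980). For Fgfr1 they were Tmem120b, Bag3 and Tead3 (0.960, 0.956 and 0.955), and for Fgfr2 they were Elp4, Snhg17 and Vdac3 (0.976, 0.970 and 0.965). The values for Etv5 rest largely on HA 3, where Etv5 read 2.63 FPKM against 5.95 to 6.49 FPKM in the other HA libraries. The r values are the highest among tested genes with predicted and unnamed gene models left out. Maxima over so many genes and only 8 libraries can be high by chance alone. They come from libraries of which 4 share each scaffold, and are given as a description.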

How the data were processed

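Per the labels' protocols, total RNA of 8 MC3T3-E1 samples (4 TABS, 4 HA) was extracted with TRIzol, made into libraries with a NEBNext Ultra RNA kit and read in pairs on an Illumina NovaSeq. The deposited table holds 1 FPKM value per gene and library, made by the authors. The submitters' processing notes name fastp, STAR, DESeq2 and the build GRCm38, without versions or roles. The sources used here state neither the program behind the FPKM values nor its annotation or strand setting. Columns were assigned by the library names in the labels (letter H for TABS, L for HA). No transcript can verify the scaffold of a library, so exchanged letters would turn every direction. No other column of values was in the table.

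Symbols, coordinates and lengths came from GENCODE M21 (GRCm38), which held 55154 of 55335 identifiers. Genes with at least 1 FPKM in at least 4 of 8 libraries were kept (11280). The comparison used limma 3.58.1 (R 4.3.3) with log2(FPKM + 1) as input, trended variances and no block, two-sided, with Benjamini-Hochberg adjustment over all 11280 genes and a threshold of 0.05. Fold changes on this scale understate changes of low FPKM. The fit was also run on simulated data with independent libraries and changes of 1 log2 unit. That setting does not cover smaller changes or technical replicates. FPKM are not counts, so no count test was run. The 10 genes and the lists were chosen with earlier results of these data known. The rule for named genes took the 10 genes and at most 3 tested genes from each list, those of smallest adjusted p. It also took the 3 tested genes most like each of Etv5, Fgfr1 and Fgfr2, leaving out predicted and unnamed gene models. The 18 alternatives were another pseudocount, 2 other filters, 3 scalings, robust variances, the replicate block, a GC and length correction with and without it, and each library left out. Fgfr1 shares 164 exonic bases with Gm16159 and Spry1 710 with Gm42922, both under 0.15 FPKM. On the opposite strand, Ccnd1 shares 1100 exonic bases with LTO1, Fgfr3 998 with G630022F23Rik and Dusp5 547 with AC137853.2. With the strand setting unstated, reads cannot be told apart in such shared stretches, nor in that of Gpc1. Other genes, apart from markers and genes with shared exons, were named after their values were seen. 1 gene of the cascade list is counted but not reported here. Start sequences came from RefSeq (GRCm38.p6), and 7 of the 10 genes were matched.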

Additional observations from a re-analysis of the deposited data

Results flagged for a closer look

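Single libraries that stood apart from the other 3 of their group were looked for in 39 genes and both groups (78 gene-and-group sets of 4), by the gap to the nearest value divided by the range (Dixon's test for 4 values). Chance flags about 1 in 20 such sets for genes not chosen by their values. That rate does not apply to genes named after their values were seen. Fgfrl1, Grb2, Emp1 and Dusp7 are among these and give 5 of the 9 cases. Nor does it apply to genes taken from the lists by smallest adjusted p, as Spred2 and Phlda1 were. Of the 10 genes, the following were found: Etv5 at 2.63 FPKM in HA 3 (5.95 to 6.49 in the other HA libraries) and Etv4 at 3.64 FPKM in TABS 3 (3.88 to 3.91 in the other TABS libraries). Of the inhibitors, Dusp7 stood at 8.54 FPKM in HA 4 (5.10 to 5.47 in the others) and Spred2 at 5.54 FPKM in HA 1 (6.24 to 6.34 in the others). Phlda1 stood at 6.46 FPKM in HA 2, against 7.17 to 7.31 in the others. Fgfrl1 read 31.8 FPKM in TABS 1 (16.7 to 17.2 in the other TABS libraries) and 33.4 FPKM in HA 2 (15.6 to 17.2 in the other HA libraries). Grb2 read 23.8 FPKM in TABS 2, against 43.5 to 46.3, and Emp1 read 30.1 FPKM in TABS 1, against 114 to 119.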

How the results depend on the processing

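None of the 10 genes changed direction under any of the 18 alternatives that kept it. The number of the 10 called was 8, and became 3 with no filter on low FPKM, 5 of 6 with a filter of 5 FPKM, 3 with the replicate block, 3 with the GC and length correction and the block, and 3 to 7 with 1 library left out. The count over all genes (833) became 542 with no filter, 230 with the block, 331 with the correction and the block, and 415 to 718 with 1 library left out. Calls among receptors and cofactors (2) became 0 with the block, with and without the correction, and 0 to 2 with 1 library left out. The 1 cascade call became 2 after rescaling to TPM, 0 with a pseudocount of 0.1, no filter, median-of-ratios scaling, quantile normalization, the correction, and the block with or without it, and 0 in each omission. The 4 ERK inhibitor calls became 1 with the block, 0 with the correction and the block, and 2 to 4 in omissions, and the 4 calls among other receptor tyrosine kinases became 0, 0 and 1 to 4. The ERK-responsive calls numbered 2 with the block, 3 with the correction and the block (Egr1, lower, being the third), and 2 to 3 in omissions. Some fold changes smaller than their SE changed sign. Fgfrl1 was 0.00 after quantile normalization, -0.03 after the correction with or without the block, and -0.21 to 0.25 in omissions. Ccnd1 was 0.00 with median-of-ratios scaling, -0.05 after the correction with or without the block, and -0.02 to 0.02 in omissions. Mapk3 was 0.00 after the correction with or without the block and -0.02 to 0.07 in omissions, and Etv1 was -0.04 to 0.07. Grb2 (-0.16 ± 0.18 in the main fit) was -0.25 to 0.06, and Emp1 (0.16 ± 0.52) was -0.26 to 0.64. Grb2 stood apart in TABS 2, and Emp1 in TABS 1 and HA 3. The cause was not tested.

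The replicate numbers gave no pairing: the deviations of same-numbered libraries from their group means correlated at 0.105, 0.05, -0.104 and -0.058, and the libraries did not each correlate best with their own number. Depth is unknown, so the counting error of low genes such as Spry4 and Fgf2 could not be given.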
